A study of Mus musculus with 6 samples.

Results

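Ammonia handling in the liver was described here through 10 genes of the urea cycle and its nitrogen supply, chosen by name: Cps1, Otc, Ass1, Asl, Arg1, Nags, Gls2, Slc25a15, Glud1 and Slc25a13. All 10 were among the 21512 genes of the deposited table, and all 10 passed the filter on low values. The RNA came from whole livers of 6 C57BL/6J mice, all given CCl4 (carbon tetrachloride) together with a high-fat diet for 12 weeks, a model of steatohepatitis (MASH) with fibrosis. Every 3 days over that time 3 of the mice received an isotype control and the other 3 an anti-PD-1 antibody, directed at a checkpoint receptor of T cells. The labels give neither age nor sex. The titles name PD-1 for all 3 treated mice, while the treatment field of replicates 2 and 3 carries another number after the letters PD. The groups here follow the titles. Each mouse gave 1 library of 15528364 to 20779319 reads.

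Urea synthesis removes the ammonia set free when amino acids are broken down. In mitochondria of periportal hepatocytes, glutaminase 2 and glutamate dehydrogenase release ammonia, carbamoyl phosphate synthetase 1 fixes it, and ornithine transcarbamylase makes citrulline. In the cytosol, argininosuccinate synthase, argininosuccinate lyase and arginase 1 complete the cycle and return ornithine. Ammonia that passes the periportal zone is taken up by pericentral hepatocytes, where glutamine synthetase (Glul) turns it into glutamine.

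Promoter sequence from RefSeq (GRCm38.p6) was at hand for 6 of the 10 genes and not for Cps1, Asl, Arg1 or Gls2. Of these stretches of 250 bases before the start of transcription, 3 are shown, each read 5′ to 3′ on the gene's strand, because they belong to the gene with the lowest level and a lower value in every treated mouse (Nags), the gene with the highest level per length (Ass1) and the gene with the smallest difference between groups (Otc). Capitals mark matches to the GC box (GGGCGG, either strand), the only motif found in these 3 windows.
Nags, chr11:102145263-102145512, + strand: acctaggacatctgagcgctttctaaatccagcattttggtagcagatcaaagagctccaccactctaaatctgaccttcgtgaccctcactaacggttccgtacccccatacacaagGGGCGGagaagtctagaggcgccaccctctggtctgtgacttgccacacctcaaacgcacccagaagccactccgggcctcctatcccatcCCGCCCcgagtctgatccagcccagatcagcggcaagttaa
Ass1, chr2:31470020-31470269, + strand: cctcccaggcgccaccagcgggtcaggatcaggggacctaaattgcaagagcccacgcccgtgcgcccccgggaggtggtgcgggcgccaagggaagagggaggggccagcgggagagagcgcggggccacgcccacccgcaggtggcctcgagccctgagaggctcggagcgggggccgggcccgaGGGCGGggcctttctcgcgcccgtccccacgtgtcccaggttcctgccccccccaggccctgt
Otc, chrX:10252055-10252304, + strand: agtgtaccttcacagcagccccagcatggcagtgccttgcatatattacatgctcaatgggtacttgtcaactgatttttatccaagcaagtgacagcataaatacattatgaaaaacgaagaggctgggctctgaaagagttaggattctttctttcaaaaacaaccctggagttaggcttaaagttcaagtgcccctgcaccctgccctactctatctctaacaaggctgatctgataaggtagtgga
The Nags window held 2 GC boxes and the Ass1 window 1, and the Otc window held none. GC boxes were present in 32.7% of the 32851 RefSeq windows of this length. The Otc window had a GC content of 43.6%, against 55.6% for Nags and 75.6% for Ass1. The 6 windows were searched on both strands for the cyclic AMP response half-site (TGACG, in 17.8% of all windows), a C/EBP site (TTGCNNAA, 9.56%), an HNF4 half-site (CAAAGTC, 3.84%), the glucocorticoid response element (0.387%), the TATA box (TATAAA, 12.4%), the GC box and the CCAAT box (CCAAT, 33.8%). The half-site TGACG occurred in the window of Slc25a13 alone among the 6, at bases 13 to 9 before the start, as did CCAAT at bases 22 to 18. No match overlapped a match to another motif. A match describes the letters of the window and is not evidence of binding.

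Values below are on the deposited scale, read counts scaled for library size, near CPM, and fold changes are log2 differences of anti-PD-1 minus control after adding 0.5 to each value. None of the 10 genes passed the test between groups (limma, Benjamini-Hochberg adjusted p over 13990 genes, threshold 0.05), in a comparison in which 0.00715% of tested genes passed, 1 gene in all. Of the 10 genes, 8 had a positive fold change, against 50.5% of all tested genes. Their median fold change was 0.14, against 0.003 over all tested genes. With a block for the replicate number, 0.286% of tested genes passed (40 genes, 0.193% higher and 0.0929% lower) and again 0 of the 10. DESeq2 on recovered reads called 1.87% of genes and edgeR 0%, and neither called a member. At an unadjusted p under 0.05 by limma, 1 member was higher (Asl) and 1 lower (Nags), where 5.04% and 6.24% of tested genes were, or 11.3% in either direction. The same 2 members had an unadjusted p under 0.05 with the block (7.75% of genes higher, 7.4% lower, 15.1% either) and by edgeR (5.68% higher, 5.95% lower, 11.6% either). By DESeq2 they were joined by Cps1 in the higher direction (6.25% higher, 5.18% lower, 11.4% either).

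**Figure D1:**
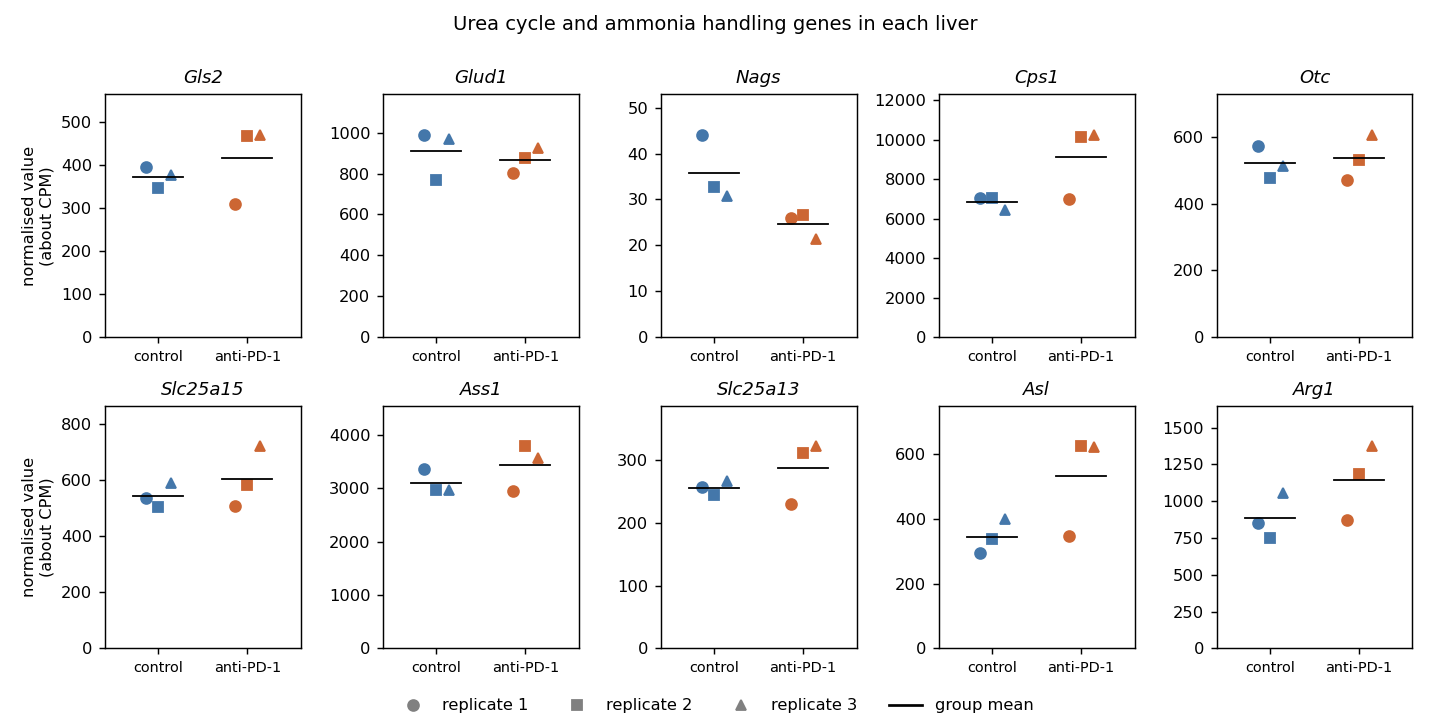
Normalised value of each of the 10 genes (vertical axis from 0, about CPM) in the 3 isotype control and 3 anti-PD-1 libraries, with marker shape giving the replicate and the line the group mean. For Cps1, Asl and Arg1 anti-PD-1 replicates 2 and 3 lie above all controls and replicate 1 lies among them, while all 3 treated values of Nags lie below the controls.

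Per kilobase of transcript, the scale on which genes can be compared, Ass1 was the most abundant member in controls at 1829 ± 138 (SD, n = 3), followed by Cps1 at 1232 ± 62.7 and Arg1 at 599.6 ± 105. Glud1 (268 ± 35.8) and Otc (225 ± 20.7) came next, with ranges over the control mice that overlapped. Slc25a15 (158 ± 12.3), Gls2 (145 ± 9.67) and Asl (142 ± 21.3) also overlapped in their ranges, and Slc25a13 was at 82.0 ± 3.43. Nags was the least abundant at 17.7 ± 3.55 per kilobase. After anti-PD-1 the order was the same except that Asl, at 220.5 ± 66.4 per kilobase, stood at rank 6 in place of rank 8.

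Glutamine and glutamate supply ammonia to the cycle. Gls2, the liver glutaminase (ENSMUSG00000044005), was at 395, 346 and 377 in the control libraries and 310.4, 467 and 471 in the anti-PD-1 libraries, in the order of replicates 1 to 3. The treated values lay on both sides of the control range, with a fold change of 0.14 ± 0.17 (SE, limma adjusted p = 0.802). Gls2 shares exon bases with Spryd4 on the opposite strand, which was at 20.6 to 24.9, and whether counting used the strand is not given in the sources used here. Glud1, glutamate dehydrogenase (ENSMUSG00000021794), was at 989, 769 and 968 in control mice, against 800.4, 875 and 925 in treated mice. All 3 treated values lay inside the control range, and the fold change was -0.06 with a 95% interval of -0.40 to 0.28. The pseudogene Glud-ps shares 656 bases with Glud1 at 97.6% identity and was not among the genes of the deposited table. Some reads of Glud1 could therefore come from it.

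Entry of ammonia into the cycle depends on Cps1 and on Nags, which makes N-acetylglutamate, the obligate activator of the Cps1 enzyme. These 2 genes had fold changes of opposite sign, and neither passed the test. Cps1 (ENSMUSG00000025991) was at 7049.6, 7045 and 6444 in control mice, against 6993, 10154.5 and 10256 in treated mice. Anti-PD-1 replicate 1 lay within the control range and replicates 2 and 3 well above it, and the SD over the mice was 348 in control mice, against 1855 in treated mice. The fold change was 0.40 ± 0.27 (SE, limma adjusted p = 0.621), with a 95% interval of -0.24 to 1.03. Without the intensity trend in limma, a setting added after seeing the data, the SE of Cps1 was 0.18 and the adjusted p was 0.475.

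Nags (ENSMUSG00000048217) was at 44.1, 32.6 and 30.8 in control mice, against 26.0, 26.6 and 21.5 in treated mice, from 399 to 817 reads per library. It was the only member whose groups did not overlap, where 9.98% of tested genes did not overlap in the lower direction and 7.13% in the higher. The fold change of -0.52 ± 0.16 (SE) had a 95% interval of -0.89 to -0.15 and did not pass over all genes (limma adjusted p = 0.316, unadjusted p = 0.0126). Without isotype control replicate 1, the highest of the 6 values, the fold change was -0.36 (limma unadjusted p = 0.0350, adjusted p = 0.574). The gene model Gm11586 runs opposite to Nags and shares 445 identical bases with its transcript. It was at 0 to 1.19 in every library, a small fraction of the Nags values.

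Otc, which joins carbamoyl phosphate to ornithine (ENSMUSG00000031173), was at 573, 478 and 513 in control mice, against 471, 529.9 and 606 in treated mice. The groups overlapped, and the interval of the fold change ran from -0.28 to 0.35 around 0.04. Slc25a15, the carrier that exchanges ornithine and citrulline across the inner mitochondrial membrane (ENSMUSG00000031482), was at 538, 505 and 589 in control mice, against 508, 584 and 722 in treated mice. Only anti-PD-1 replicate 3 lay above its controls, and the fold change was 0.14 ± 0.15 (SE, limma adjusted p = 0.759).

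The cytosolic steps begin with Ass1, which joins citrulline and aspartate (ENSMUSG00000076441). It was at 3371, 2969 and 2964 in control mice, against 2955, 3793 and 3572 in treated mice, with a fold change of 0.14 ± 0.19 (SE, limma adjusted p = 0.808). The pseudogene Gm5424 shares 1240 bases with Ass1 at 99.5% identity and was not among the genes of the deposited table. Some reads of Ass1 could therefore come from it. Slc25a13, the aspartate and glutamate carrier citrin that exports the aspartate Ass1 uses (ENSMUSG00000015112), was at 257, 245 and 266.5 in control mice, against 229.8, 311 and 323 in treated mice. Its pattern was that of Gls2 and Ass1, with anti-PD-1 replicate 1 below and replicates 2 and 3 above every control. For Ass1, replicate 1 was only just below, at 2955 against 2964 in the lowest control. The fold change of Slc25a13 was 0.15 ± 0.14 (SE, limma adjusted p = 0.721).

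Asl, which splits argininosuccinate into arginine and fumarate (ENSMUSG00000025533), had the largest fold change of the 10 genes. It was at 296, 337 and 398 in control mice, against 347, 625 and 623 in treated mice. Replicates 2 and 3 stood above every control, and replicate 1 was inside the control range. The fold change was 0.59 ± 0.24 (SE), with a 95% interval of 0.03 to 1.14, and it did not pass over all genes (limma adjusted p = 0.419, unadjusted p = 0.0407). DESeq2 on recovered reads gave an adjusted p of 0.145 and edgeR 0.374. Without anti-PD-1 replicate 1 the fold change was 0.87, with a limma adjusted p of 0.0790, the lowest of any member in any setting tried.

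Arg1, the liver arginase that releases urea (ENSMUSG00000019987), was at 851, 749.9 and 1056 in control mice, against 875, 1182 and 1375 in treated mice. As for Asl, replicate 1 lay among the controls and replicates 2 and 3 above them. The fold change was 0.36 ± 0.21 (SE, limma adjusted p = 0.558). Arg1 is also made by some macrophages. The monocyte and macrophage list (13 of 13 genes measured) summed to 471 to 691 in control mice, against 1328, 430.3 and 557 in anti-PD-1 replicates 1 to 3. Of its genes, Mrc1 was at 97.0 to 114 among controls and at 127.9, 98.3 and 99.2 among treated replicates 1 to 3, and Chil3 at 0.553 to 1.51 and at 4.03, 0.666 and 1.97. Retnla had 1, 7 and 1 reads among controls and was at 0 in all 3 treated libraries. The part of macrophages in the Arg1 values was not tested.

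**Figure D2:**
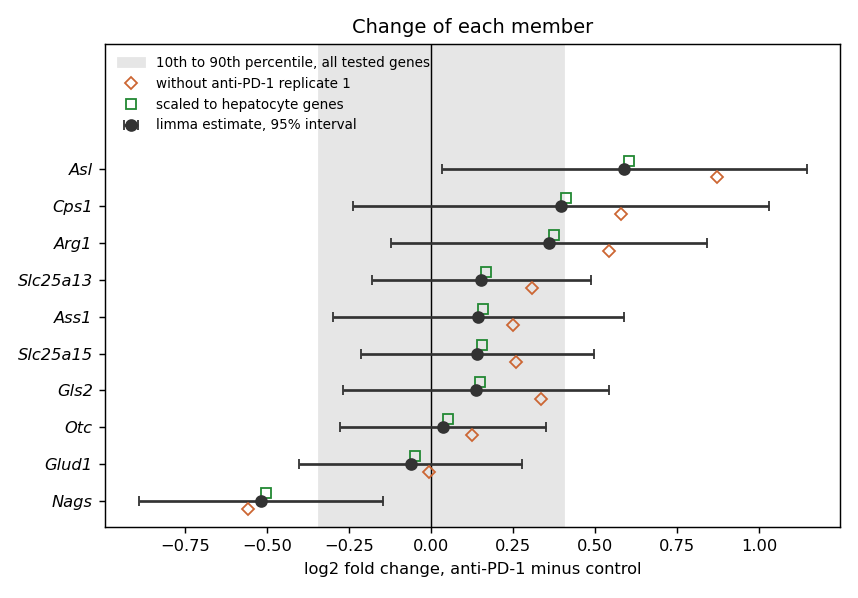
Log2 fold change of anti-PD-1 minus control for each gene (horizontal axis), as the limma estimate with its 95% interval, without anti-PD-1 replicate 1 (diamonds) and after scaling to hepatocyte genes (squares), over the band that holds the 10th to 90th percentile of all tested genes (-0.34 to 0.41). Asl and Nags have estimates outside the band in opposite directions, and all intervals except theirs include 0.

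The treated mice differed from each other on these genes. In anti-PD-1 replicate 1, 0 of 10 members lay above all 3 controls and 5 lay below them (Otc, Ass1, Nags, Gls2 and Slc25a13), where 25.3% and 32% of tested genes did. In replicate 2, 6 members lay above all controls and 1, Nags, below (29.9% and 29.2% of tested genes). In replicate 3, 8 lay above and 1, again Nags, below (28.9% and 28.1%). The SD of log2 values was larger in treated mice than in controls for 8 members, all but Nags and Glud1, and for 56.1% of tested genes. The median member fold change was 0.28 without anti-PD-1 replicate 1, 0.08 without replicate 2 and 0.05 without replicate 3. Without replicate 1, Cps1, Asl, Arg1, Gls2 and Slc25a13 were higher and Nags lower at an unadjusted p under 0.05 by limma (8.01% and 7.06% of tested genes), and 0 members passed after adjustment (0.172% and 0.0429%).

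The median of 12 hepatocyte markers, among them Alb and Apob, differed between the libraries in a similar order. This median log2 difference from the control mean was -0.24 in anti-PD-1 replicate 1, 0.13 in replicate 2 and 0.23 in replicate 3. In the controls it was 0.16, -0.16 and 0.06. Single markers did not all follow it, with 7 positive and 5 negative fold changes. Alb was at -0.29, -0.31 and -0.13 in treated replicates 1 to 3, and Ttr at -0.41, -0.56 and -0.26. None of the 12 was at 0 in any library, and their sum ranged from 95732 to 127442 in control mice, against 92198 to 112836 in treated mice. In whole liver, fewer cells of a type and less RNA per cell cannot be told apart. When every library was scaled to the geometric mean of these markers, the median member fold change was 0.16, and anti-PD-1 replicate 1 had 7 members above all controls and 0 below, while replicates 2 and 3 had 6 above and 2 below each. On that scale 52% of all tested genes lay above and 6.48% below the controls in replicate 1. The shares were 19.2% above and 32% below in replicate 2, and 10.5% above and 43.1% below in replicate 3. Members above the controls thus came with a high share of all genes above them in replicate 1 and with a low share in replicates 2 and 3.

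Scaled in this way, the treated values of 3 members lay above all controls, where 5.9% of tested genes did, and those of 0 members lay below (4.15%). Cps1 was at 6367, 7989 and 6196 in control mice, against 8410.02, 9729 and 9037 in treated mice. Asl was at 268, 382 and 383 in control mice, against 417, 599 and 549 in treated mice. Arg1 was at 769, 850.4 and 1015 in control mice, against 1052, 1133 and 1212 in treated mice. These 3 genes and Nags had an unadjusted p under 0.05 by limma on this scale (3.83% of tested genes in the higher and 2.49% in the lower direction). None passed after adjustment (limma adjusted p = 0.747 for Cps1, 0.508 for Asl, 0.715 for Arg1 and 0.777 for Nags). The lower values of Nags no longer stood apart, since anti-PD-1 replicate 1, at 31.3, exceeded the third control mouse, at 29.6.

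**Figure D3:**
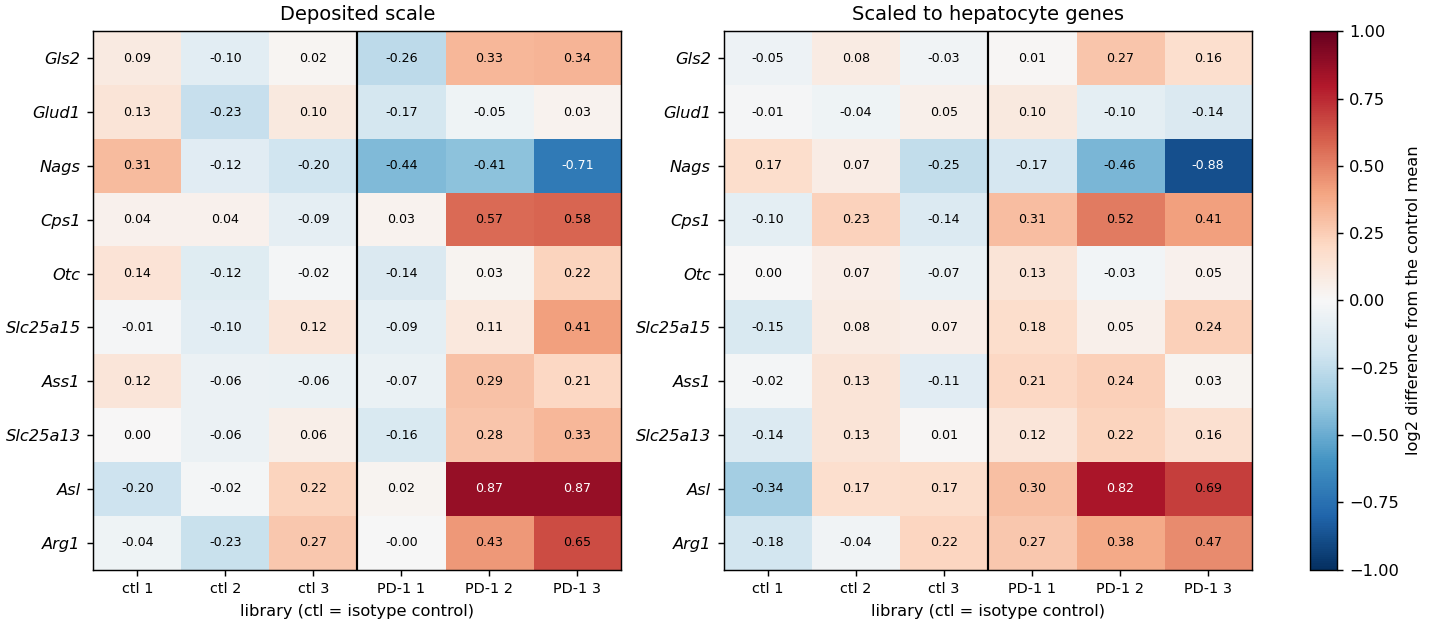
Log2 difference of each gene (rows, in order of the pathway) from its control mean in each library (columns), on the deposited scale at left and scaled to hepatocyte genes at right, with colour from -1 to 1. At left Nags is the only row below the controls in all 3 treated libraries, and at right Cps1, Asl and Arg1 are above the controls in all 3.

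Summed T cell and neutrophil markers were highest in anti-PD-1 replicate 1. On the deposited scale no member exceeded all controls in that library, while 7 members did after scaling to hepatocyte genes. The 10 T cell markers summed to 11.9 to 15.4 in control mice, against 59.3, 21.2 and 28.8 in anti-PD-1 replicates 1 to 3. None of the markers was at 0, and 3 of the 10 passed the filter on low values. Zap70 made up most of this sum in every library except treated replicate 1. It was at 8.70 to 10.7 in control mice, against 12.2, 13.5 and 18.5 in treated replicates 1 to 3. The 7 measured neutrophil markers summed to 5.47 to 8.50 in control mice, against 40.0, 4.59 and 8.64 in treated mice, also with none at 0. Nos2, which uses arginine to make nitric oxide, did not pass the filter on low values. Its read counts were 0, 2 and 4 among control mice and 959, 0 and 5 among treated replicates 1 to 3, which is 46.1 on the deposited scale in replicate 1. Arg2, the mitochondrial arginase, was at 0.352 to 0.379 in control mice, against 0.720, 0.399 and 1.03 in treated mice, from 6 to 20 reads. Of the other lists, resident Kupffer cell markers summed to 272 to 553 in the controls and 650, 305 and 322 in treated replicates 1 to 3, and stellate cell markers to 867 to 1183 and 1420, 859 and 963. The Kupffer sum joins genes with opposite fold changes, 5 positive and 6 negative among 11. C1qa, C1qb, C1qc and Adgre1 had their highest value in treated replicate 1, while Clec4f, Timd4, Marco and Cd163 were lower in every treated mouse than in any control. Of the 11, these 4 were lower and 0 higher without overlap, against 9.98% and 7.13% of tested genes. Vsig4, Cd5l and Folr2 overlapped between groups, with fold changes of -1.59, -0.02 and 0.04. Cd163, which codes for the haemoglobin receptor of such cells, ranged from 6.38 to 17.3 among controls and was at 1.44, 0.200 and 0.310 among treated mice. Its adjusted p was 0.129 by limma, 0.0298 by limma with the replicate block, 0.230 by edgeR and 3.45e-06 by DESeq2, and these genes are named after their values were seen. Endothelial markers (506 to 535, then 495, 542 and 532) and cholangiocyte markers (94.9 to 238, then 137, 78.8 and 94.3) did not exceed the control range in replicate 1. The part of these cells in the members' values was not tested.

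Across the 6 libraries, each of Cps1, Otc, Ass1, Asl, Arg1, Gls2, Slc25a15 and Slc25a13 correlated with the mean of the other 9 members at r = 0.75 (Asl) to 0.98 (Slc25a13 and Gls2). For Glud1 r was 0.47 and for Nags -0.56. Of tested genes outside the list, 11.5% had r above 0.7 with the members' mean. These values describe 6 libraries in which the median of the hepatocyte markers also differed. The genes outside the list most like the members' mean were Snap47, Ttc27, Phb2, Farsb and the gene model Gm37860 (r = 0.99 each), and 2.14% of these genes had r above 0.9. Phb2, a prohibitin of the inner mitochondrial membrane, was at 119, 112 and 121 in control mice, against 106, 137 and 141 in treated mice.

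Pathway genes around the cycle were read from 5 lists, in which 65 genes that are not members were tested. None passed by limma (lowest adjusted p = 0.249). At an unadjusted p under 0.05 by limma, 11 were higher and 5 lower, or 16.9% and 7.69% of them, against 5.04% and 6.24% of all tested genes. edgeR called 0 of them and DESeq2 called 4, where DESeq2 called 1.08% of tested genes higher and 0.787% lower.

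The list of amino acid deamination and breakdown had positive fold changes in 19 of 23 cases, with a median fold change of 0.24. Not every gene of this list releases ammonia, and it also holds Asns, an asparagine synthetase, at a fold change of 0.53. Aass, which starts lysine breakdown, was at 361, 428 and 514 in control mice, against 625, 936 and 1197 in treated mice. All 3 treated mice were above the controls, with a fold change of 1.04 ± 0.24 (SE, limma adjusted p = 0.249, DESeq2 adjusted p = 0.000977). Tat, the tyrosine aminotransferase, was at 1658, 2503 and 3176 in control mice, against 3020.5, 4308 and 5952 in treated mice, with replicate 1 inside the control range (limma adjusted p = 0.400). Prodh, which starts proline breakdown, was at 116 ± 19.2 and 149 ± 12.1 (SD, n = 3, limma adjusted p = 0.392).

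Of 14 tested genes that handle glutamine and glutamate, 11 were positive, with a median fold change of 0.25. Slc38a2, a sodium-coupled transporter of neutral amino acids, was at 231, 522 and 610.02 in control mice, against 692, 929 and 1149 in treated mice (fold change 1.11 ± 0.36 SE, limma adjusted p = 0.343). Got1, the cytosolic aspartate aminotransferase, was at 252, 465 and 598 in control mice, against 608, 832 and 1203 in treated mice (limma adjusted p = 0.348). For both genes every treated value lay above every control, and isotype control replicate 1 was far the lowest of the 6. Slc25a12, the aspartate and glutamate carrier related to Slc25a13, was at 15.6 ± 1.45 and 20.4 ± 3.08 (SD, n = 3, limma adjusted p = 0.408). Aqp8, a water channel for which ammonia transport has been described, had lower values, at 116, 59.9 and 144 in control mice, against 41.2 to 60.4 in treated mice. The groups overlapped, since anti-PD-1 replicate 1 lay just above isotype control replicate 2, with a limma adjusted p of 0.311 and a DESeq2 adjusted p of 0.0266.

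The pericentral route showed a wide spread among the control mice. Glul was at 167, 669 and 524 in control mice, against 302, 287 and 365 in treated mice, so all treated values lay inside the control range. Its fold change of -0.30 ± 0.46 (SE, limma adjusted p = 0.841) was -0.90 without isotype control replicate 1 (limma unadjusted p = 0.00102, adjusted p = 0.318) and 0.10 without isotype control replicate 2 (adjusted p = 0.947). The log2 ratio of Cps1 to Glul was 4.14 ± 1.10 in control mice, against 4.83 ± 0.31 in treated mice (SD, n = 3, exact permutation p = 0.4, adjusted over 3 ratios 0.9), and 3 mice against 3 cannot give a p under 0.1. The log2 ratio of Gls2 to Glul was -0.06 ± 1.15 and 0.37 ± 0.33 (exact permutation p = 0.6, adjusted 0.9). Oat, which uses ornithine in the pericentral zone, was at 279.6, 431 and 356 in control mice, against 432, 335 and 717 in treated mice, and the log2 ratio of Arg1 to Oat was 1.32 ± 0.46 and 1.26 ± 0.49 (exact permutation p = 1, adjusted 1). None of the 3 ratios passed the test, and the spread among mice was wide.

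Of 10 tested genes of arginine and ornithine use, 7 were positive, with a median of 0.14. Slc7a1, an arginine transporter of low level in liver, was at 3.60 ± 0.66 in control mice, against 5.35 ± 1.15 in treated mice (SD, n = 3, limma adjusted p = 0.431). Slc7a2, the main liver arginine transporter, was at 1007, 2003 and 2126 in control mice, against 1882, 2998 and 3378 in treated mice (limma adjusted p = 0.478), and is named here after its values were seen. Of the genes that support carbamoyl phosphate synthesis, the carbonic anhydrase Car5a was at 36.2 ± 4.67 and 33.6 ± 5.47 (SD, n = 3), and Car5b at 4.09 ± 1.15 and 2.45 ± 0.52 (limma adjusted p = 0.807 and 0.424). That list of 7 includes Nags, Slc25a13 and Slc25a15 and had 5 negative fold changes.

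Among 14 transcription factors and hormone inputs that act on these genes, 9 were positive. Ppargc1a, a coactivator induced by fasting, was at 18.2, 61.9 and 68.1 in control mice, against 99.6, 171 and 165 in treated mice. Every treated value was above every control, with a fold change of 1.72 ± 0.48 (SE, limma adjusted p = 0.279) and of 1.12 without isotype control replicate 1. Foxo1, a factor held back by insulin, was at 59.9 ± 17.1 and 97.5 ± 15.8 (SD, n = 3, limma adjusted p = 0.311), and Klf15, a factor of amino acid breakdown, at 133 ± 23.4 and 182 ± 38.1 (adjusted p = 0.431). Lower values were seen for Foxa2, at 8.64 ± 3.17 and 3.94 ± 0.58 (limma adjusted p = 0.260, DESeq2 0.0329), for the bile acid receptor gene Nr1h4, at 121 ± 3.19 and 98.8 ± 5.09 (0.307 by limma), and for Creb1, at 34.6 ± 5.33 and 25.8 ± 5.62 (0.431). The groups overlapped for Creb1 and Klf15, where anti-PD-1 replicate 1, at 32.2 and 143, lay inside the control range. Cebpa and the glucagon receptor gene Gcgr, both known inputs to urea cycle genes, had fold changes of -0.07 and 0.08, and neither sign held when single libraries were left out. Cebpb ranged from 2.75 to 18.5 among controls and from 7.32 to 11.7 in treated mice.

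**Figure D4:**
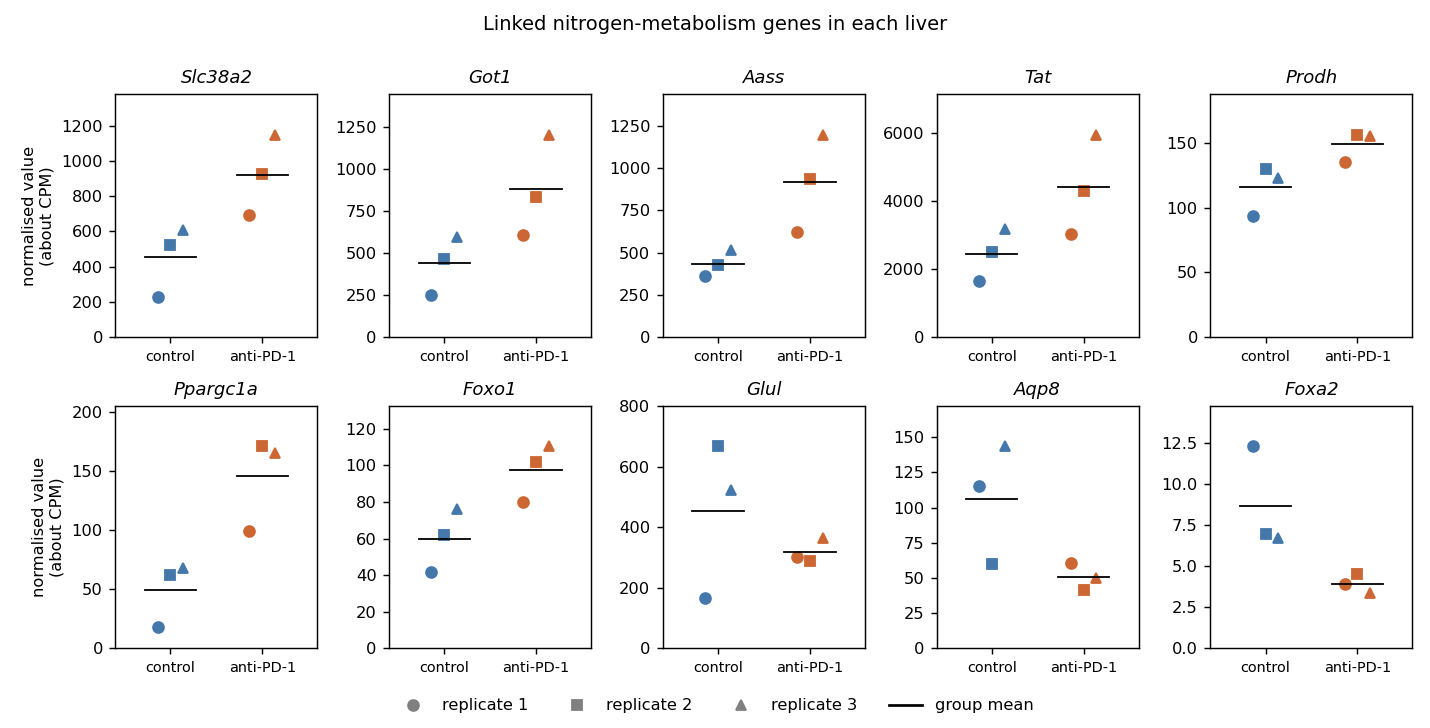
Normalised values (vertical axis from 0, about CPM) of 10 linked genes of amino acid breakdown, transport and control in each library, with marker shape giving the replicate and the line the group mean. Slc38a2, Got1, Aass, Prodh, Ppargc1a and Foxo1 lie above the controls in all 3 treated mice, Foxa2 lies below them, and the controls of Glul span the treated values. All genes shown except Glul had an unadjusted p under 0.05 by limma, so their separation follows in part from how they were picked. Of the 65 tested pathway genes that are not members, 12 were higher and 3 lower without overlap (7.13% and 9.98% of all tested genes).

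Zone markers outside the list were also read. Of 10 periportal genes 8 were positive, with a median fold change of 0.25, and of 11 pericentral genes 7 were positive, with a median of 0.21. Tbx3, a pericentral factor, was at 34.3 ± 8.86 in control and 11.9 ± 2.52 in treated livers (SD, n = 3). It passed by limma with the replicate block (adjusted p = 0.0298) and by DESeq2 without a block (adjusted p = 7.17e-06). It did not pass by limma without the block (0.135) or by edgeR (0.175). Axin2 of the same list was at 10.7 ± 4.94 and 2.98 ± 1.56 (adjusted p = 0.269 by limma, 0.0146 by DESeq2). Of the pericentral genes 2, Tbx3 and Axin2, were lower without overlap and 0 higher (9.98% and 7.13% of tested genes). The periportal G6pc was at 982 ± 89.9 and 1458 ± 181 (adjusted p = 0.272 by limma, 0.00214 by DESeq2). These 3 genes are named after their values were seen. The periportal list summed to 10163 to 13153 in control mice, against 10714, 14914.5 and 15891 in anti-PD-1 replicates 1 to 3. Replicate 1 of the treated mice lay within the control range of this sum and replicates 2 and 3 above it. The periportal list holds genes of sugar and amino acid metabolism such as G6pc and Sds, and it shares none with the 10 members. Both zone lists share genes with the pathway lists, so their counts are not separate readings. The shared genes are Sds and Hal (periportal) and Glul, Oat, Slc1a2 and Rhbg (pericentral).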

How the data were processed

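Whole-liver RNA of 3 control and 3 anti-PD-1 mice was read from 1 deposited signal value per gene and library. Per the submitters' processing notes, Trimmomatic 0.38, RSEM 1.3.0, Bowtie2 and edgeR were used with GRCm39, without roles or order. Each entry (100%) equalled a whole number of reads times 1 library constant, within 0.001 read, so reads were recovered (15528364 to 20779319 per library). Symbols came from a table of names that matched 21407 identifiers. Genes at 1 or more in at least 3 libraries (13990) were tested with limma 3.58.1 and an intensity trend on log2(value + 0.5), two-sided, in R 4.3.3. Recovered reads were also tested with edgeR 4.0.16 and with DESeq2 1.42.0. Fits were checked on simulated counts. Per-kilobase levels used GENCODE M21 principal transcripts, an older annotation than that of the files, and BLAST listed near-identical transcripts.

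Named genes were the members, pathway genes at an unadjusted p under 0.05 by limma (or the 2 smallest per list), 8 fixed genes and the 5 genes most like the members' mean. The members and lists were chosen with earlier results of these data known. The titles number 6 separate mice. The library kit was directional per the labels, but the strand setting of the counting is not given in the sources used here. The labels number replicates 1 to 3 in both groups without saying what a number shares. Deviations from group means of same-numbered libraries correlated at 0.15, 0.13 and 0.25, over a cut of 0.1 for each. Those of differently numbered libraries correlated at -0.22 to 0.06. A fit with the number as a block was therefore read beside the main test. This pairing was taken from the same data, and deviations of 3 libraries sum to 0 in each group. The correlations thus cannot establish that the mice were paired. A gene that the rule for named genes selects is not reported here, though the counts include it.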

Additional observations from a re-analysis of the deposited data

How the results depend on the processing

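The members called were 0 in every setting tried: other pseudocounts, filters and scalings, the replicate block, edgeR, DESeq2, no intensity trend and each library left out. The median member fold change stayed positive, from 0.07 to 0.16 over the scalings and from 0.05 to 0.28 with single libraries left out. The counts of all genes called moved most. They were 1 higher and 0 lower in the main test, 27 and 13 with the replicate block, 0 and 0 with edgeR (1626 genes at an unadjusted p under 0.05), 151 and 110 with DESeq2, and 0 to 24 higher and 0 to 6 lower with single libraries left out. Leaving out the second control mouse gave 2 higher, the first treated mouse 24 and 6, and the third treated mouse 0 higher. Of the pathway genes DESeq2 called 2 higher, Aass among them, and 2 lower (Aqp8 and Foxa2). The replicate block changed no call of a member or pathway gene. Otc turned to -0.047 with quantile normalization. With single libraries left out, Otc ranged from -0.057 to 0.12, Glud1 from -0.18 to 0.0032, Glul from -0.90 to 0.10, Cebpa from -0.16 to 0.036 and Gcgr from -0.032 to 0.23. The log2 ratio of Gls2 to Glul ranged from -0.013 to 1.08, that of Cps1 to Glul from 0.32 to 1.32 and that of Arg1 to Oat from -0.35 to 0.095. The cause of these changes was not tested. With 3 mice a group, the 95% interval of Cps1 still ran from -0.24 to 1.03, which limits what could be detected.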
